A study of Mus musculus with 24 samples.

Results

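The 8 genes described here encode complement components and regulators: C3, C4b, Cfb, C1ra, C1s1, Serping1, Cd55 and Cd59a. They were taken by gene symbol from the 35976 genes of the deposited tables, and all 8 were found in all 24 libraries. The libraries come from CT26, a transplantable colon carcinoma line of the mouse, and the question put to them was whether complement transcripts belong to the tumor cells or to the tissue around them. One line carried a knockout of Sun1, a protein of the inner nuclear membrane, and 2 control lines, control 1 and control 2, were labelled wildtype. Cultured cells gave 1 library per line. Whole subcutaneous tumors from BALB/c mice at day 14 gave 7 knockout libraries and 8 libraries of control 1. Tumor cells isolated with a commercial kit from such tumors, called purified cells below, gave 2 libraries per line. The labels do not say whether a line is 1 clone, what age the mice were, or whether replicates are separate animals, so each p-value reflects only how far these libraries spread. With 1 knockout line, the effect of the knockout and the identity of that line cannot be told apart.

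Complement is a cascade of blood and tissue proteins that tags targets for uptake, attracts leukocytes and can pierce membranes. In the classical pathway the proteases C1r and C1s, bound to C1q, cleave C4 and C2, and in the alternative pathway factor B joins C3b to form the convertase that cleaves more C3. Host cells limit the cascade with the secreted C1 inhibitor (Serping1) and with membrane proteins such as CD55 (decay-accelerating factor), CD59 and, in rodents, Crry (Cr1l). Most circulating complement is made in the liver, but macrophages, fibroblasts and many tumor cells also transcribe parts of it.

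The expected counts per library were between 18832201 and 20716917 in culture, between 14140769 and 24651279 in tumors and between 17068356 and 22593612 for the purified cells. Levels are given as counts scaled to library size (CPM) over the 24 libraries. Sun1 was at 33.7 CPM in the knockout culture against 110 and 122 CPM in the control cultures, at 50.5 to 64.8 against 169 to 192 CPM in tumors, and at 50.9 to 55.5 against 165 to 214 CPM in purified cells, so its order followed the labels in every setting. Of the colon epithelial markers, Krt20 was at 62.8 to 152 CPM in the 9 libraries of cultured or purified cells. Epcam, a defining epithelial marker, was at 0 counts in all 9. Summed markers of all leukocytes (4 genes) were at 2.27 to 3.18 CPM in culture, 1.38 to 7.04 in purified cells and 238 to 674 in tumors. The sum of 7 endothelial markers was at most 1.74 CPM in purified cells. The fibroblast sum (8 genes) was 13.5 to 17.8 CPM in culture, 132 to 144 in purified knockout cells, 514 to 825 in purified control 1 and 88.8 to 107 in purified control 2.

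**Figure D1:**
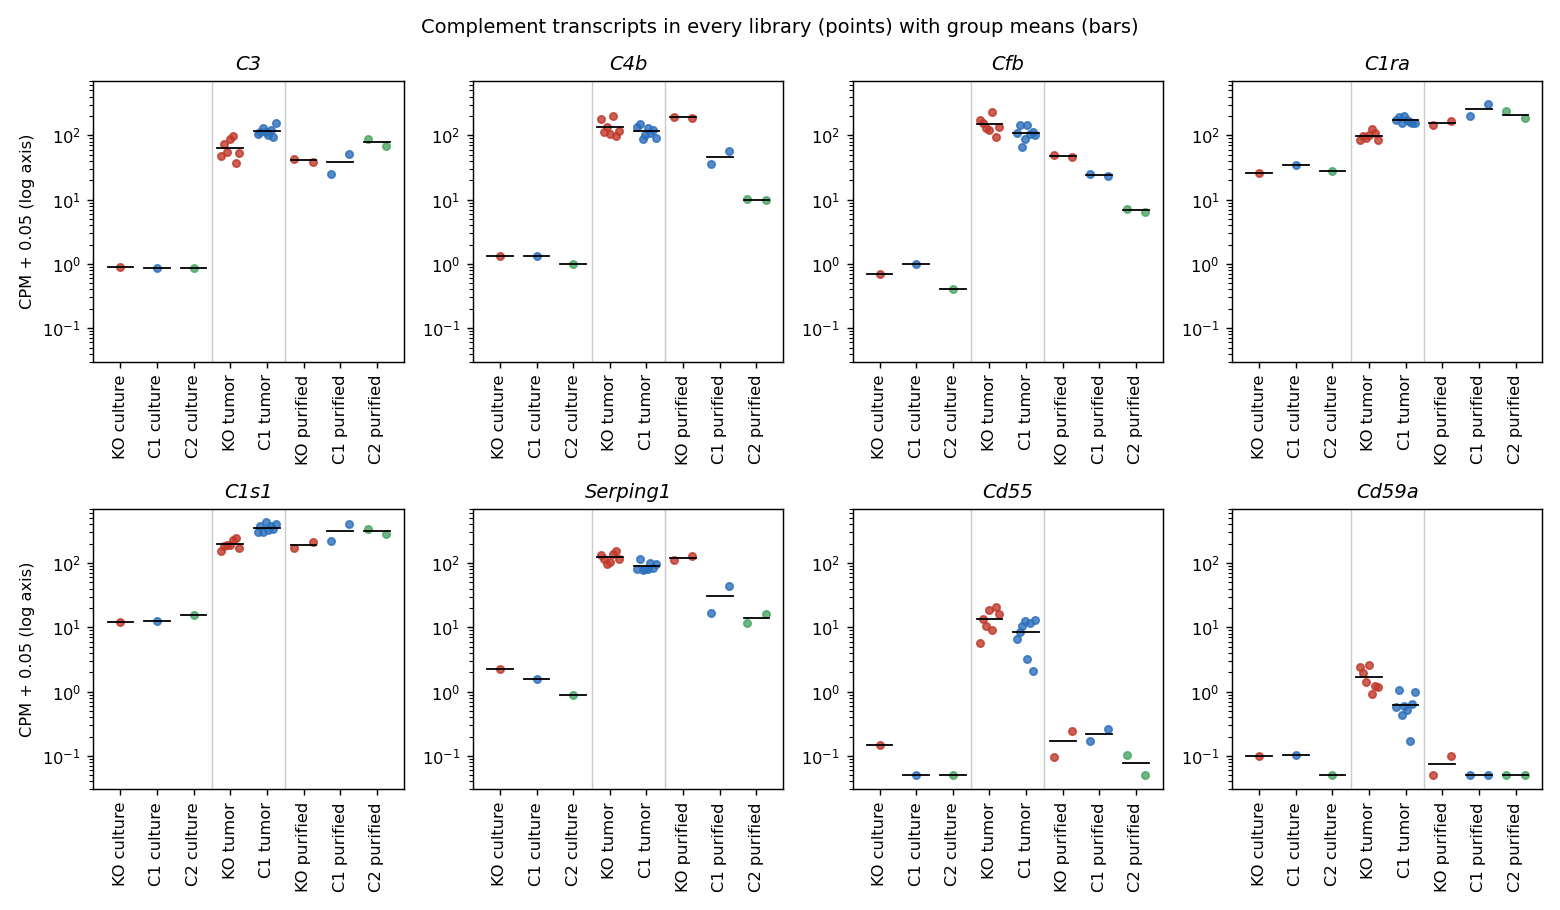
Level of each complement gene in every library on a log axis (CPM plus 0.05), with points for libraries, bars for group means, red for knockout, blue for control 1 (C1) and green for control 2 (C2). C3, C4b, Cfb, C1ra, C1s1 and Serping1 are higher in purified cells than in culture for every line, while Cd55 and Cd59a stay near 0 in both and are seen in whole tumors.

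In cultured CT26 cells, only the 2 C1 proteases stood well above the bottom of the range. C1ra, which encodes C1r, was at 25.8 CPM in the knockout, 34.9 in control 1 and 28.1 in control 2, and C1s1, which encodes C1s, at 12.2, 12.3 and 15.2 CPM. C3, the component on which all pathways converge, was at 0.838, 0.823 and 0.826 CPM. C4b, which encodes C4, was at 1.28, 1.26 and 0.929 CPM. Cfb, which encodes factor B, was at 0.641, 0.932 and 0.361 CPM, and Serping1 at 2.22, 1.54 and 0.826 CPM. The 3 lines lay close together for C3 and C1s1 and were spread most for Serping1 and Cfb, where each library held 7 to 45 reads. On the per-length TPM scale, C1ra led in each culture with 12.9 to 18.1, C1s1 followed with 5.74 to 7.66, and no other member passed 1.82. In the test of the knockout against both control lines, edgeR called 0 of the 6 members tested, 0 of them at an unadjusted p under 0.05, and 0% of 12175 genes (659 at an unadjusted p under 0.05). DESeq2 called 43 genes and 0 members.

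Libraries of cells purified from tumors held far more RNA of the tested members than cultures of the same lines. Fibroblast markers were higher there too, as given below, and the part of such RNA was not tested. All 6 tested members rose in purified against cultured cells, where 44.3% of all genes were called, 22.6% higher and 21.7% lower. The median log2 difference of the 6 was 5.12, against 0.01 over all genes.

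The C1 proteases rose least, from the highest base. C1ra reached 147 and 166 CPM in purified knockout cells, 196 and 312 in control 1, and 235 and 185 in control 2. Its log2 difference from culture was 2.80 ± 0.16 (SE, edgeR adjusted p = 4.5e-07). C1s1 reached 173 and 209 CPM in the knockout, 221 and 409 in control 1, and 340 and 280 in control 2, a log2 difference of 4.33 ± 0.26 (edgeR adjusted p = 8.35e-06). The ratio of purified mean to culture was 6.06, 7.27 and 7.46 for C1ra and 15.6, 25.5 and 20.3 for C1s1, in the order knockout, control 1, control 2.

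The central components started near the bottom. C3 was at 42.5 and 39.1 CPM in purified knockout cells, 25.4 and 51.0 in control 1, and 87.2 and 68.2 in control 2, with a log2 difference of 5.95 ± 0.34 (edgeR adjusted p = 2.14e-06). C4b was at 193 and 187 CPM in the knockout, 36.2 and 57.4 in control 1, and 10.2 and 9.75 in control 2 (5.84 ± 0.62, edgeR adjusted p = 0.000544). Cfb was at 49.9 and 46.0 CPM in the knockout, 24.8 and 23.0 in control 1, and 7.22 and 6.47 in control 2 (5.27 ± 0.27, edgeR adjusted p = 4.28e-08). C3 was highest in control 2, while C4b and Cfb were lowest there and highest in the knockout. The purified mean over culture was 148 for C4b in the knockout, 37.1 in control 1 and 10.7 in control 2.

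Serping1, the inhibitor that strips C1r and C1s from C1q, was at 110 and 129 CPM in purified knockout cells, 16.6 and 43.7 in control 1, and 11.5 and 15.9 in control 2. Its log2 difference from culture was 4.97 ± 0.54 (edgeR adjusted p = 0.000476). The knockout libraries lay above all 4 control libraries, and separation in either direction was seen for 34.5% of all genes tested. All 6 members stayed called when any 1 of the 9 libraries was left out. Of 43 other complement genes listed, 18 could be tested in purified against cultured cells. Over all genes 22.6% rose and 21.7% fell, and of these 18 genes 10 rose while 0 fell. They included C1s2, a copy of C1s1 (4.04 ± 0.35), and Clu, the inhibitor of membrane attack known as clusterin (2.15 ± 0.30).

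Growth in the mouse and the purification differ together between these libraries and cannot be told apart. Fibroblast markers moved with this comparison. Dcn, which encodes decorin, was at 1.58 to 4.11 CPM in culture, 76.3 in both purified knockout libraries, 386 and 660 in control 1, and 58.4 and 44.6 in control 2, and the part of such RNA in the member values was not tested. In purified control 1, replicate 2 was above replicate 1 for C3, C4b, C1ra, C1s1, Serping1 and Dcn. Cfb went the other way, at 24.8 CPM in replicate 1 and 23.0 in replicate 2. Macrophage markers were above culture in the purified control lines. The macrophage sum (8 genes) was 6.36 to 7.64 CPM in culture, 5.74 to 7.02 in purified knockout cells, 15.7 to 20.5 in purified control 1 and 14 to 27.8 in purified control 2, against 652 to 1830 in tumors. C1qb, C1qc and Itgam, which macrophages transcribe, were called higher in purified than in cultured cells (1.90 ± 0.59, 2.02 ± 0.48 and 1.49 ± 0.53), at no more than 3.82 CPM in any purified library. The part of macrophage RNA in the member values was not tested. Hepatocyte markers summed to at most 1.89 CPM in purified cells, with Ttr at 0.

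**Figure D2:**
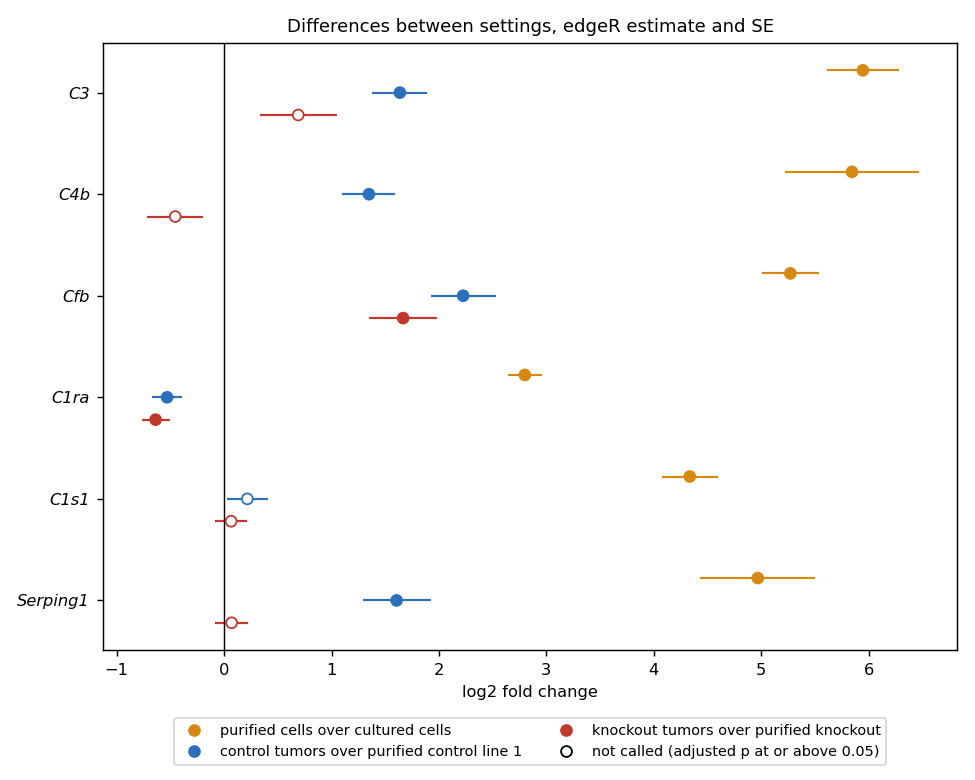
Log2 fold change (x axis) with its standard error for the 6 complement genes tested in all 3 comparisons of settings, filled where the edgeR adjusted p was under 0.05. Purified cells exceed cultured cells by 2.80 (C1ra) to 5.95 (C3), while whole tumors differ from purified cells by -0.64 to 2.22.

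The start regions of 3 of these genes are shown because C1ra, C1s1 and C3 were high in purified cells of every line and were lower together in knockout tumors, as described below. They are RefSeq sequence of build GRCm38.p6, read 5′ to 3′ on the gene's strand and ending at the base before the annotated gene. RefSeq promoter windows of 300 bases (250 before to 50 after the start) matched 5 of the 8 members, and C4b, Cfb and Serping1 had no entry. Capitals mark matches to the C/EBP letters TTGCNNAA on either strand, a motif named for a family of factors known from acute-phase genes.
C3 (chr17:57228137-57228386, minus strand): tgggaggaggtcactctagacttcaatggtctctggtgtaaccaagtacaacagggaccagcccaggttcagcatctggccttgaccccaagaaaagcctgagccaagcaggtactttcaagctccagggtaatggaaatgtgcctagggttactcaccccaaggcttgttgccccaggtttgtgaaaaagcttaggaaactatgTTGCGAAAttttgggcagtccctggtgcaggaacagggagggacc
C1ra (chr6:124512371-124512620, plus strand): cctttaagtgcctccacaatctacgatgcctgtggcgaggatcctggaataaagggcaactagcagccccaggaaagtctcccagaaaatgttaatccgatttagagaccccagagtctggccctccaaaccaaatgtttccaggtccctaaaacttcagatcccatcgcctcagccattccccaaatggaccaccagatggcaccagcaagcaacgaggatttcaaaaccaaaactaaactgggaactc
C1s1 (chr6:124542393-124542609, minus strand): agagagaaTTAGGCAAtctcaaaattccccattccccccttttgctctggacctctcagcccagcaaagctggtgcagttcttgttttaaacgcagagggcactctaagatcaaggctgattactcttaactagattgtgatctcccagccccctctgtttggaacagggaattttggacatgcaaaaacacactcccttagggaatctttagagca
The C3 match, TTGCGAAA, begins 45 bases before the start, and the C1s1 match lies on the other strand and begins 242 bases before the annotated start of its window. C1ra had a match after its start and none in the stretch shown. These letters occur in 10.8% of 27025 promoter windows. The C1ra window also held the STAT letters TTCNNNGAA after the start (8.47% of windows), and the Cd59a window held the interferon-stimulated response element motif (ISRE, both strands searched) 187 bases before the start (3.49% of windows). C1ra and C1s1 are neighbours on chromosome 6, with 6.9 kb between them, and C4b and Cfb lie 112.5 kb apart on chromosome 17. The matches describe letters and were not tested as binding sites.

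The membrane inhibitors Cd55 and Cd59a were nearly absent from cultured and purified cells. Cd55, which speeds the decay of the convertases, had 14 reads in all 9 cell libraries together, from 0 to 4 per library. Cd59a, which blocks the last step of membrane attack, had 3 reads in the 9 libraries, with 0 or 1 in each. Neither reached the count minimum in culture or in purified cells. In whole tumors Cd55 was at 2.07 to 20.7 CPM and Cd59a at 0.122 to 2.55 CPM. Tumor over purified, the pooled ratio of Cd55 was 112 for the knockout (95% exact binomial interval 47.7 to 344, 1727 against 5 reads) and 49.5 for control 1 (22.7 to 135, 1297 against 6 reads). For Cd59a it was 69.8 in the knockout (12.4 to 2769, 216 against 1 read), and in control 1, with 86 against 0 reads, at least 6.56-fold higher over a floor of 3 reads for the group. Intervals and floors cover counting error only.

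Another membrane inhibitor was present in the cells. Cr1l, which encodes Crry, was at 49.4 to 67.8 CPM in culture, 51.5 to 64.8 in purified cells and 42.6 to 57.3 in tumors. Within control 1 it was lower in tumors (44.3 to 57.3 CPM) than in purified cells (62.1 and 64.8), by -0.28 ± 0.09 (edgeR adjusted p = 0.0167), and in the knockout the difference of -0.16 ± 0.09 did not pass (edgeR adjusted p = 0.161). Cd46 was at most 1.58 CPM in cultured or purified cells, Cd59b had 1 read in the 9 libraries and Cd55b had 0 in all 24. Masp1, a protease of the lectin pathway, was at 70.9 to 168 CPM in cultured and purified cells and 50.3 to 144 in tumors.

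Whole tumors were then set against the purified cells of the same line, in which leukocyte and endothelial markers were far lower. Fibroblast markers were not lower in purified control 1, with a sum of 514 to 825 CPM against 446 to 546 in control tumors. In the knockout the sum was 132 to 144 CPM in purified cells against 222 to 379 in tumors. The part of fibroblast RNA in these differences was not tested. Cd55 and Cd59a passed the filter on low counts only through the tumors, so their direction was fixed by the filter and they are left out of the counts here. Of the other 6 members, 4 were higher and 1 lower in tumors of control 1 (53.9% of all genes called, 30.2% higher and 23.7% lower). In the knockout, 1 of the 6 was higher and 1 lower (56.4% called, 31.1% higher and 25.3% lower). Both tests compare 2 purified libraries with 8 or 7 tumors, and tissue handling differs between them too.

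The C1 proteases were not higher in tumors. C1ra was at 153 to 197 CPM (median 170) in control tumors against 196 and 312 in purified control 1, a log2 difference of -0.53 ± 0.14 (edgeR adjusted p = 0.00488). Without replicate 2 of purified control 1 it was -0.17 (edgeR adjusted p = 0.378). In knockout tumors C1ra was at 83.2 to 124 CPM (median 97.8) against 147 and 166 in purified knockout cells (-0.64 ± 0.13, edgeR adjusted p = 0.000859). C1s1 was at 301 to 428 CPM (median 353) in control tumors and 155 to 249 (median 188) in knockout tumors, overlapping purified cells of the same line, with log2 differences of 0.22 ± 0.19 (edgeR adjusted p = 0.362) and 0.07 ± 0.15 (edgeR adjusted p = 0.735). Without replicate 2 of purified control 1 the former was 0.72 (edgeR adjusted p = 0.00432).

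Cfb was higher in tumors of both lines, by 2.22 ± 0.30 in control 1 (edgeR adjusted p = 0.000137) and 1.67 ± 0.32 in the knockout (edgeR adjusted p = 0.0018). Purified cells were at 24.8 and 23.0 CPM of Cfb in control 1 and at 49.9 and 46.0 in the knockout. C3, C4b and Serping1 were higher in control tumors, by 1.64 ± 0.26, 1.35 ± 0.25 and 1.61 ± 0.32 (edgeR adjusted p = 0.000295, 0.000822 and 0.00181). In the knockout their differences were 0.69 ± 0.36, -0.45 ± 0.26 and 0.07 ± 0.16 (edgeR adjusted p = 0.132, 0.167 and 0.722). Without knockout tumor replicate 5, C4b passed as lower (-0.57, edgeR adjusted p = 0.0282).

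Of 24 other genes tested in control 1, 14 were higher in tumors and 2 lower (30.2% and 23.7% of all genes). Of 26 in the knockout, 14 were higher and 3 lower (31.1% and 25.3% of all genes). The C1q subunits, products of macrophages in most tissues, were among the higher genes. C1qc averaged 382 CPM in knockout tumors and 204 in control tumors, against 0.831 to 3.82 in purified cells. The anaphylatoxin receptor C3ar1 averaged 109 and 81.2 CPM in tumors and at most 1.85 in any purified library. Clu was lower in tumors of both lines, by -0.85 ± 0.12 and -0.58 ± 0.08.

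Between tumors of the 2 genotypes, 5 of the 8 members differed, 2 higher and 3 lower in the knockout, against 37.1% of 13752 genes called (18.1% higher, 19% lower). In bulk tissue, fewer cells of a type and less RNA per cell cannot be told apart. The median log2 difference of the 8 members was 0.35, against 0.01 for all genes.

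The C1 proteases and C3 fell in knockout tumors. C1ra, at the ranges given above, averaged 98.6 ± 14.9 CPM (SD, n = 7) against 171 ± 17.8 (SD, n = 8), a log2 difference of -0.79 ± 0.09 (edgeR adjusted p = 1.3e-06). C1s1 averaged 196 ± 32.3 against 356 ± 45.1 CPM, with a log2 difference of -0.85 ± 0.10 (edgeR adjusted p = 2.72e-06). For C1ra and C1s1 every knockout tumor lay below every control tumor, which held for 9.2% of all genes in either direction (6.08% lower and 3.12% higher). C3 was at 37.0 to 96.5 CPM (median 55.2) in knockout tumors and 92.5 to 153 (median 112) in control tumors, and the groups overlapped only at their edges (-0.84 ± 0.19, edgeR adjusted p = 0.00329).

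Of the 3 inhibitors among the members, Serping1 and Cd59a rose in knockout tumors. Serping1 was at 95.1 to 156 CPM (median 117) against 76.7 to 115 (median 81.6), with overlapping groups and a log2 difference of 0.47 ± 0.11 (edgeR adjusted p = 0.00252). Cd59a was at 0.855 to 2.55 CPM (median 1.36) against 0.122 to 1.02 (median 0.538), a log2 difference of 1.52 ± 0.34 (edgeR adjusted p = 0.00176), from 16 to 50 reads per knockout tumor and 3 to 20 per control tumor. Cd59b, a near copy, took at most 30% of the reads of the pair in a tumor. Cd55, at 5.66 to 20.7 against 2.07 to 13.0 CPM, overlapped widely (0.68 ± 0.38, edgeR adjusted p = 0.171).

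C4b and Cfb did not pass. C4b was at 98.1 to 203 CPM (median 116) in knockout tumors and 87.6 to 152 (median 115) in control tumors, with a log2 difference of 0.23 ± 0.17 (edgeR adjusted p = 0.295). Cfb was at 94.6 to 233 (median 134) and 65.4 to 145 CPM (median 107), with a log2 difference of 0.47 ± 0.19 (edgeR adjusted p = 0.0736). It passed without knockout replicate 6, control replicate 2 or control replicate 5 (edgeR adjusted p = 0.0391, 0.0451 and 0.046).

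Of 24 other complement genes tested in tumors, 6 rose and 4 fell, where 18.1% of all genes rose and 19% fell. The C1q subunits C1qa and C1qc rose by 0.79 ± 0.28 and 0.91 ± 0.25, C2, the partner of C4 in the classical convertase, by 1.07 ± 0.25, and the alternative-pathway stabiliser Cfp (properdin) by 0.45 ± 0.16. C1rl, a relative of C1r, fell by 0.57, Masp1 by 0.64 and Clu by 0.24. Cell markers differed between the same tumors: the leukocyte sum was 422 to 674 CPM in knockout and 238 to 443 in control tumors, and the fibroblast sum was 222 to 379 against 446 to 546 with no overlap. Krt20 was at 35.6 to 80.3 CPM in knockout tumors and 71.1 to 166 in control tumors. Their part in the member differences was not tested.

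Among purified cells, the knockout against both control lines gave 0 of 6 tested members past the threshold by edgeR, where 4.55% of 12476 genes were called (2.26% higher, 2.29% lower). At an unadjusted p under 0.05 there were 5 of the 6, against 21.8% of all genes. The log2 differences were 2.76 ± 0.78 for C4b, 1.66 ± 0.58 for Cfb, 2.45 ± 0.50 for Serping1, -0.56 ± 0.20 for C1ra, -0.70 ± 0.23 for C1s1 and -0.50 ± 0.45 for C3 (edgeR adjusted p = 0.131, 0.171, 0.0527, 0.156, 0.124 and 0.562). All 4 control libraries lay below both knockout libraries for C4b, Cfb and Serping1 and above both for C1ra and C1s1, and such separation was seen for 34.5% of all genes tested. In the same comparison DESeq2 called more genes, 1139 in all (554 higher, 585 lower). Among them were 3 members (C4b, Serping1 and C1s1, DESeq2 adjusted p = 0.0227, 0.00269 and 0.016). In the authors' deposited table, control over knockout, C4b was at -2.77, Serping1 at -2.39 and C1s1 at 0.69 (adjusted p = 0.0155, 0.00503 and 0.0231).

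The 2 control lines differed from each other as well. C4b and Cfb were lower in control 2 than in control 1, by -2.23 ± 0.21 and -1.80 ± 0.17 (edgeR adjusted p = 0.000217 for each), and 2 of the 6 members tested were called, against 12.4% of all genes (5.08% higher, 7.35% lower). C3 was higher by 1.03 ± 0.32 (edgeR adjusted p = 0.1) and Serping1 differed by -1.13 ± 0.48 (edgeR adjusted p = 0.201). The C3 difference was 0.62 without replicate 1 of purified control 1 and 1.61 without its replicate 2, and each of these fits leaves 1 library of that line.

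The count of members called moved with the control arm, as did the share of all genes called, which was 23.7% against control 1 alone, 19% against control 2 alone and 20.6% with the control lines as separate groups. Against control 1 alone, C4b (2.03) and Cfb (1.02) passed (edgeR adjusted p = 0.00694 and 8.76e-05), Serping1 was at 1.99 (edgeR adjusted p = 0.168) and C3 at 0.10 (edgeR adjusted p = 0.896). Against control 2 alone, 5 members passed, with C4b at 4.26, Serping1 at 3.12 and Cfb at 2.82 higher and C3 at -0.92 and C1s1 at -0.69 lower. With the control lines as separate groups, C4b (3.14), Cfb (1.91) and Serping1 (2.55) passed (edgeR adjusted p = 6.06e-07, 1.69e-07 and 0.0257). Leaving out replicate 2 of purified control 1 gave 1 call, Serping1 (3.03, edgeR adjusted p = 0.000186), and leaving out its replicate 1 gave C1s1 (-0.84, edgeR adjusted p = 0.0297). In the test against both control lines, where C4b did not pass, its near copy C4a was higher in the knockout (2.06 ± 0.41, edgeR adjusted p = 0.0249). It was the 1 gene called of 20 other complement genes tested there, against 4.55% of all genes. C4a took 2.51% to 8.1% of the reads of the pair in purified cells.

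**Figure D3:**
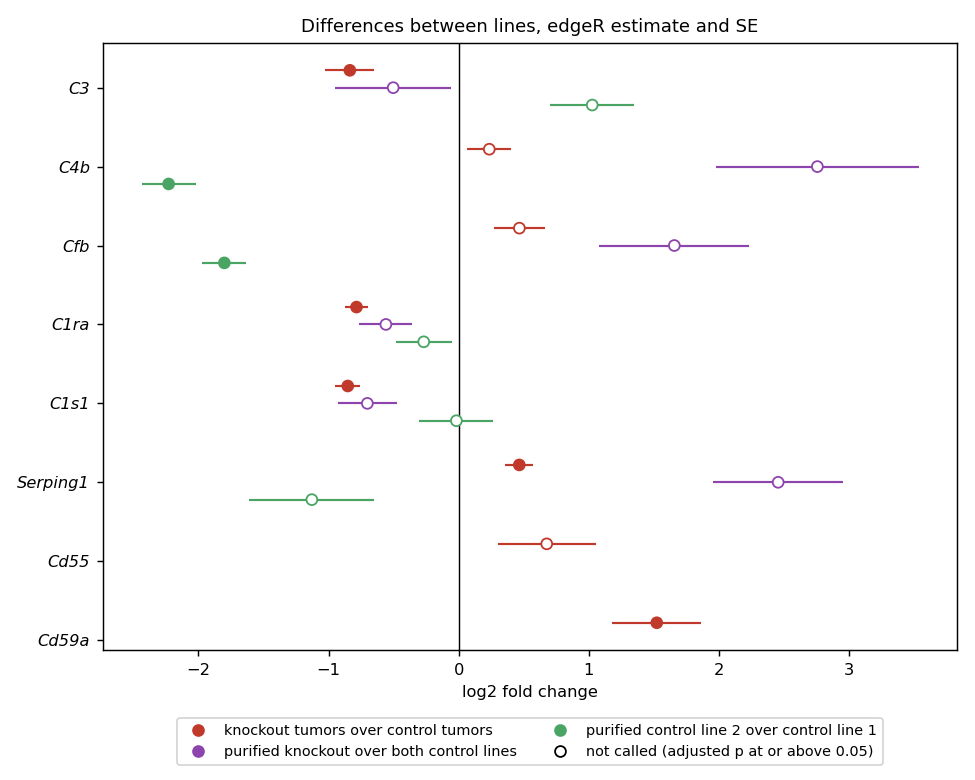
Log2 fold change (x axis) with its standard error for each complement gene in 3 comparisons between lines, filled where the edgeR adjusted p was under 0.05. Cd55 and Cd59a were tested, and are drawn, in the tumor comparison only. C1ra and C1s1 lie below 0 in tumors and purified cells of the knockout, and C4b and Cfb differ between the purified control lines by -2.23 and -1.80.

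Whether the knockout difference itself differed between tumors and purified cells was tested with control 1, the line present in both. It did for 2 of 8 members, against 10.1% of all genes (4.82% higher, 5.27% lower). The 8 include Cd55 and Cd59a, where 0 to 4 reads per purified library were too few to show such a difference. The knockout difference was smaller in tumors by 1.79 log2 units for C4b (-1.79 ± 0.38, edgeR adjusted p = 0.00805) and by 1.52 for Serping1 (-1.52 ± 0.35, edgeR adjusted p = 0.0124). C4b lost its call without replicate 1 of purified control 1 (-1.51, edgeR adjusted p = 0.0692), and Serping1 without replicate 2 of the purified knockout (-1.42, edgeR adjusted p = 0.0698). For C1ra and C1s1 the differences of -0.09 ± 0.21 and -0.14 ± 0.27 did not pass (edgeR adjusted p = 0.84 and 0.805).

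Per transcript length, the order of the members changed with setting. In purified control 1 and control 2, C1s1 led at a mean of 142 and 131 TPM and C1ra followed at 122 and 94.3 TPM. In purified knockout cells Serping1 led at 97.5 TPM, above C1s1 at 89.2, C1ra at 77.9, C4b at 45.0, Cfb at 24.1 and C3 at 10.4 TPM. In knockout tumors the order was Serping1 (88.0), C1s1 (81.0), Cfb (66.1) and C1ra (43.4 TPM), and in control tumors C1s1 (158), C1ra (81.5), Serping1 (69.5) and Cfb (52.3 TPM). The deposited mean transcript length of C3 was 3199 to 4937 bases in tumors, 4927 to 5139 in purified cells, and 3487 to 5139 in culture, where 15 to 17 reads set it. Values under 5139 mean that part of the C3 reads was assigned to a shorter model, in all tumors, in 3 of 6 purified libraries and in 1 of 3 cultures. Counts cover both models, and only per-length values of C3 are affected.

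**Figure D4:**
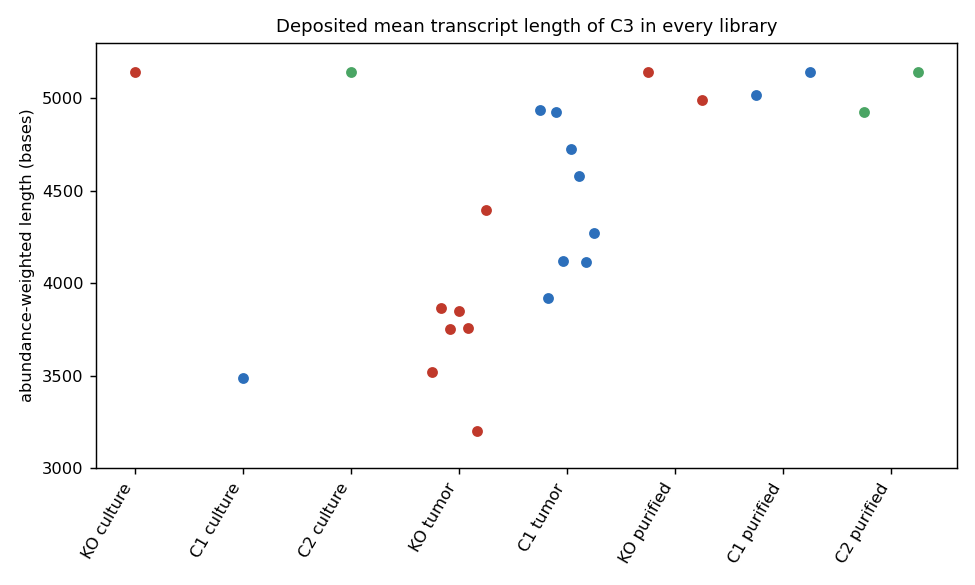
Deposited abundance-weighted transcript length of C3 (y axis, bases, not starting at 0) in each library (points), by group. Tumors spread from 3199 to 4937 bases, purified cells from 4927 to 5139, and the control 1 culture is at 3487.

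Within genotypes, the members followed different cell markers from tumor to tumor. Over the 15 tumors, after the genotype means were subtracted, Cfb and C4b varied together (Pearson r = 0.855, Spearman rho = 0.829) and with the leukocyte sum (r = 0.942 and 0.843). Cfb also followed the macrophage sum (r = 0.868). C1ra and C1s1 varied together (r = 0.663) and with the natural killer cell sum (r = 0.775 and 0.72), as did Serping1 with the latter (r = 0.665), and the r of C1ra and C1s1 with the fibroblast sum was -0.13 and -0.0905. C3 followed none of these closely, with r = 0.118 for leukocytes, 0.328 for macrophages and -0.0779 for fibroblasts. Its highest r was 0.547 with the neutrophil markers, followed by 0.499 with the mast cell markers. Cd55 ran against the leukocyte sum (r = -0.564) and against C4b (r = -0.62). These values describe 15 libraries that share scaling and depth, and no test was made of them.

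Of about 10485 genes ranked for likeness over the same tumors, those nearest to Cfb were Cybb and Ncf1, subunits of the phagocyte oxidase, and Mpeg1, a macrophage pore protein (r = 0.964, 0.951 and 0.95). Nearest to C4b were Grn, Nod1 and Unc93b1 (r = 0.941, 0.919 and 0.9). C1ra was nearest to Tapbp, Il2rb and M6pr (r = 0.858, 0.857 and 0.833), and C1s1 to Rtp4, Trim30d and Rad9b (r = 0.861, 0.854 and 0.853). Serping1 was nearest to H2-T22 (r = 0.868), and C3 to Gas7 (r = 0.794). Cd55 was nearest to Fcrl6 and to the granzymes Gzme and Gzmf, proteases of cytotoxic lymphocytes (r = 0.931, 0.915 and 0.915), while its r was -0.552 with the T cell sum and 0.0256 with the natural killer cell sum.

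**Figure D5:**
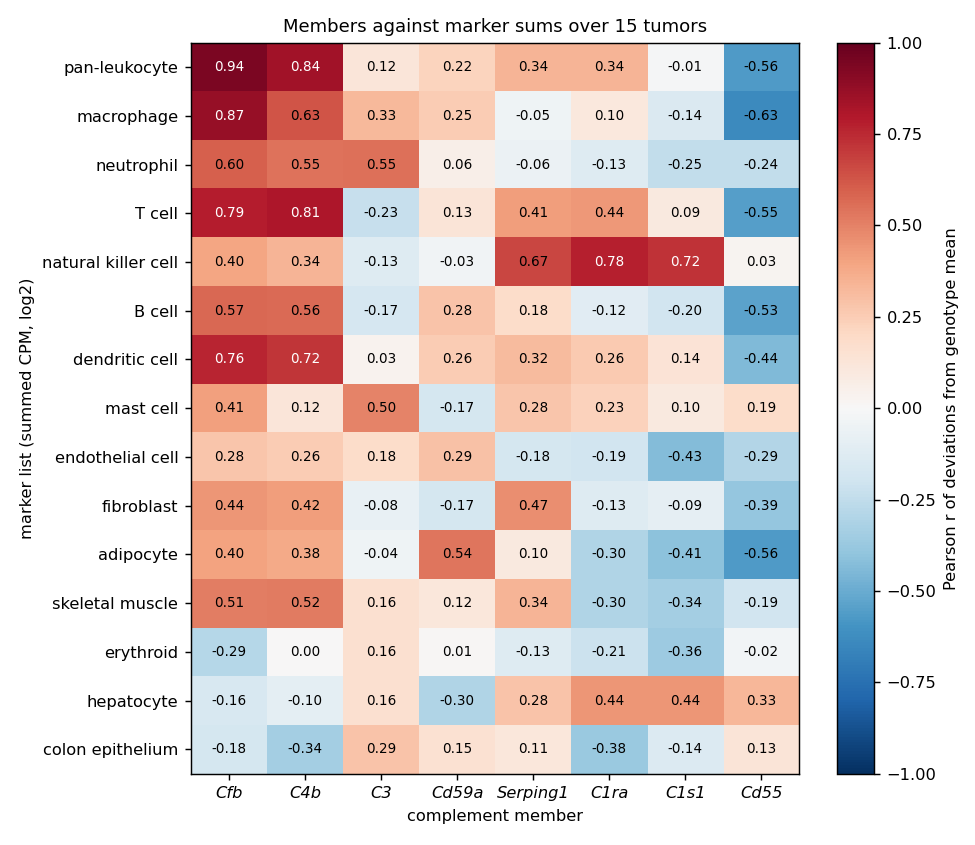
Pearson r over 15 tumors between each complement gene (columns) and the summed markers of a cell type (rows), after subtracting genotype means. Cfb and C4b have their highest values with leukocyte markers (0.942 and 0.843), and C1ra, C1s1 and Serping1 with natural killer cell markers (0.775, 0.72 and 0.665).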

How the data were processed

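RNA enriched for mRNA was sequenced from CT26 cells in culture, whole tumors and purified tumor cells, per the labels' protocols. The submitters' processing notes list FastQC, STAR, RSEM and DESeq2 and the genome build mm10 and their versions were not given in the sources used here. Per the file headers, the authors deposited for each library and gene an expected count (an unscaled estimate of reads), TPM, FPKM and transcript lengths. TPM was used only for levels between genes and FPKM for nothing. The authors' DESeq2 tables hold a signal (normalised counts averaged over libraries), a log2 fold change, a score (Wald statistic) and a p-value, per the file headers. Only the log2 values and adjusted p-values were used. Their direction is not stated, and Sun1 is positive in all 3, which makes them control over knockout.

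Expected counts were rounded. All 24 libraries were mapped from the labels and 0 value columns were left unmapped. Each fit took the libraries of 1 comparison and all genes, with edgeR 4.0.16 (R 4.3.3; TMM, filterByExpr with minimum count 10 and minimum total 15, robust quasi-likelihood F test, Benjamini-Hochberg, threshold 0.05, two-sided). Purified against cultured cells had line as a term. The knockout culture is 1 library, assumed to vary as the control lines do. Standard errors were derived from the fold change and its F statistic. Likeness used log2 CPM with a prior count of 2 among genes at 5 CPM or more on average in both genotypes. Steps were tested on simulated data. Libraries of a group differed by a chi-square per gene of at least 7.38, so none was counted as a repeat. Members, gene lists, markers and tests were chosen with earlier results of these data known. All 8 members are named in each comparison, and other genes come from a list of 51 complement genes. The alternatives were DESeq2 1.42.0, its size factors, no filter, a replicate block, other control arms and leaving out each library.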

Additional observations from a re-analysis of the deposited data

Results flagged for a closer look

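Both results below stand out because the knockout line differed from control 1 by unlike amounts in whole tumors and in purified cells, by a test of these amounts. For C4b the log2 difference in tumors minus that in purified cells was -1.79, and for Serping1 it was -1.52. Each lost its call when 1 purified library was left out, as given with the result. Between the purified control lines, C4b differed by -2.23 and Serping1 by -1.13 (edgeR adjusted p = 0.000217 and 0.201). In the 16 combinations of a member and a genotype, each with 7 or 8 tumors, no tumor lay far enough from the others to stand apart.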

How the results depend on the processing

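Of the single-member values under all alternatives, 728 kept their direction and side of the threshold, 29 newly passed, 3 no longer passed and 14 changed sign. The 5 tumor calls and the 6 purified-over-culture calls were among the calls under every alternative. The same held for Cfb and C1ra between knockout tumors and purified cells. Cd55 and Cd59a are left out of the latter, as their direction was fixed by the filter. DESeq2 size factors changed no count of members.

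In the purified knockout comparison, members called were 3 with DESeq2, 1 with the replicate block, 2 with control 1 only, 5 with control 2 only, 3 with control lines as separate groups, and 0 to 1 with a library left out. Genes called were 1139 with DESeq2, 908 with no filter, 303 with the block, 2896, 2322 and 2570 with those control arms, and 72 to 540 with a library left out. In culture 43 genes were called with DESeq2 and 95 with no filter, and leaving out a library left no residual degrees of freedom. Between control lines 2267 genes were called with no filter, and 999 to 2319 genes and 2 to 5 members with a library left out. For the difference of knockout effects it was 546 to 1705 genes and 1 to 2 members.

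Signs changed for C3 in purified cells against control 1 only (0.10). Between control lines C1s1 was at 0.0388 with the block and 0.0387 with the crossed block, and ran from -0.388 to 0.481 with a library left out, and C1ra ran from -0.557 to 0.0928. In tumors against purified cells with a library left out, C1s1 ran from -0.161 to 0.718 for control 1 and from -0.0803 to 0.19 for the knockout (-0.131 with the block), and Serping1 from -0.0561 to 0.172 for the knockout. The difference of effects gave Cd59a at 0.352 with DESeq2, and with a library left out Cd59a ran from -1.56 to 1.51, C1ra from -0.462 to 0.183 and C1s1 from -0.643 to 0.22. The cause was not tested.

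Replicate numbers did not pair the tumors: same-numbered tumors of the genotypes correlated at -0.206 to 0.33, and 0 of 7 pairs matched best. Purified knockout with control 2 (r = 0.118) and control tumors with purified control 1 (r = 0.101 to 0.102) matched best in 2 of 2. With 2 purified libraries per line, deviations from the group mean mirror each other, so these matches show only the sign of r. They cannot decide whether the libraries were paired. The block newly called Cfb between tumors (0.44, edgeR adjusted p = 0.0143), Serping1 in the purified knockout (2.56, edgeR adjusted p = 0.0444) and between control lines (-1.01, edgeR adjusted p = 0.00865), and C3 in knockout tumors against purified cells (0.56, edgeR adjusted p = 0.0417), and it changed no other member's call. Same-numbered control libraries correlated at -0.134, and a crossed pairing, added after seeing the data, called 2429 genes and 3 members. The unfiltered and DESeq2 fits include more low genes, and the median of all genes moved by up to 0.31 on the log2 scale there, in knockout tumors against purified cells. At 0 to 4 reads per library, differences of Cd55 and Cd59a among cultured or purified cells were not detectable at this depth.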
